A study of Arabidopsis thaliana and Zea mays subsp. mays with 14 samples.

Results

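This account concerns open chromatin regions of Arabidopsis thaliana that were called in a single library out of 10. The regions listed for the 10 libraries were joined wherever they touched or overlapped, which gave 29359 merged regions. A merged region with called bases in exactly 1 library was taken as a single-library region, and 4212 were found, 14.3% of all merged regions. The members were chosen by the authors' calls in these same libraries, so the number of such regions, their width and their score are given as a description without a test. The assay was ATAC-seq, which uses the Tn5 transposase to tag DNA that is not covered by nucleosomes. The 10 libraries formed 5 groups of 2, all from plants of 7 days in the Col-0 background. Root libraries held 50000 nuclei from wild-type roots. The second pair held 500 nuclei from wild-type whole seedlings. The third pair, labelled crude, held 50000 nuclei from wild-type whole seedlings. The fourth pair held 50000 nuclei from whole seedlings of the 35S:H2AX-GFP transgenic line, in which the 35S promoter drives a fluorescent H2AX histone. The fifth pair held 50000 nuclei from wild-type whole seedlings and is called sorted seedling (50000 nuclei) below. The protocol text of every sample names sorting, also for the crude pair. Whole seedlings include roots, so the seedling groups contain root nuclei too. Whether both libraries of a group come from different plants is not stated in the labels, and p-values below measure the spread between libraries, which may be technical.

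In plants as in animals, active promoters and enhancers are cleared of nucleosomes, and most accessible DNA of Arabidopsis lies just outside genes. Gene bodies are wrapped in nucleosomes, and the chromosome parts around centromeres are poor in genes, rich in transposable elements and packed as heterochromatin. A peak caller keeps windows whose signal passes a limit, so a weak window can be kept in one library and dropped in another.

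The lists held 22138 to 29309 regions per library and carried no read counts, so the depth is unknown. All regions lay on the 5 nuclear chromosomes. As a check of the tissue labels, at least 1 region lay in or within 1000 bp of 20 of 27 photosynthesis genes in each root library, against 27 of 27 in each of the 8 seedling libraries. Cuticle and epidermis genes had 10 and 7 of 16 in root replicates 1 and 2, and 10 to 16 in seedling libraries. The root lists did not separate the tissues. Nutrient uptake genes had 18 and 17 of 21 in roots and 13 to 20 in seedling libraries. Root development genes had 23 and 22 of 25 in roots and 18 to 24 in seedling libraries. In whole tissue, fewer nuclei of a type and less open chromatin per nucleus cannot be told apart. Among single-library regions, crude replicate 1 and H2AX-GFP replicate 2 stood apart from most other libraries in position, as described below. Results that rest on them are also given without them. Replicate 2 of 500 nuclei departed as far as H2AX-GFP replicate 2, by -25.9 against -25.7 points at gene ends. In gene-poor windows it departed by 20.8 against 19.0 points. It had 58 single-library regions and was left out on its own, not together with these libraries.

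Single-library regions were spread very unevenly over the libraries. H2AX-GFP replicate 2 had 1320 and H2AX-GFP replicate 1 had 925, together 53.3% of the total. Root replicate 1 had 663 and root replicate 2 had 173. The crude libraries had 387 and 332. The libraries of 500 nuclei had 29 and 58, and the sorted seedling libraries of 50000 nuclei had 181 and 144. As a share of the merged regions called in a library, the highest was 6.15% in H2AX-GFP replicate 2 (exact 95% interval 5.84 to 6.48%) and the lowest 0.147% in replicate 1 of 500 nuclei (0.0986 to 0.211%). Intervals of this kind cover counting error only and treat neighbouring regions as independent. The counts did not follow the number of listed regions. Replicate 1 of 500 nuclei listed 26089 regions and had the fewest single-library regions, while root replicate 1 listed 23186. H2AX-GFP replicate 1 and replicate 2 covered the most bases, 24.6 and 23.9 Mb, and had the most single-library regions. Covered bases did not order the other libraries. Sorted seedling replicate 1 of 50000 nuclei came next with 22.4 Mb and had 181, while crude replicate 1 covered the least, 13.8 Mb, and had 387. The order of the libraries depended on the lists used. With the higher-scoring 50% of each list, H2AX-GFP replicate 2 had 408 single-library regions and root replicate 1 had 415. With regions up to 500 bp apart merged they had 667 and 275. Without crude replicate 1 and H2AX-GFP replicate 2, 3634 merged regions were called in 1 of the remaining 8 libraries, with a median width of 241.5 bp and a median score percentile of 7.55, and 39.6% lay within 500 bp of a region of another library. In bases, single-library regions held 1.25 Mb of the 35.0 Mb of all merged regions, or 3.58%.

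**Figure D1:**
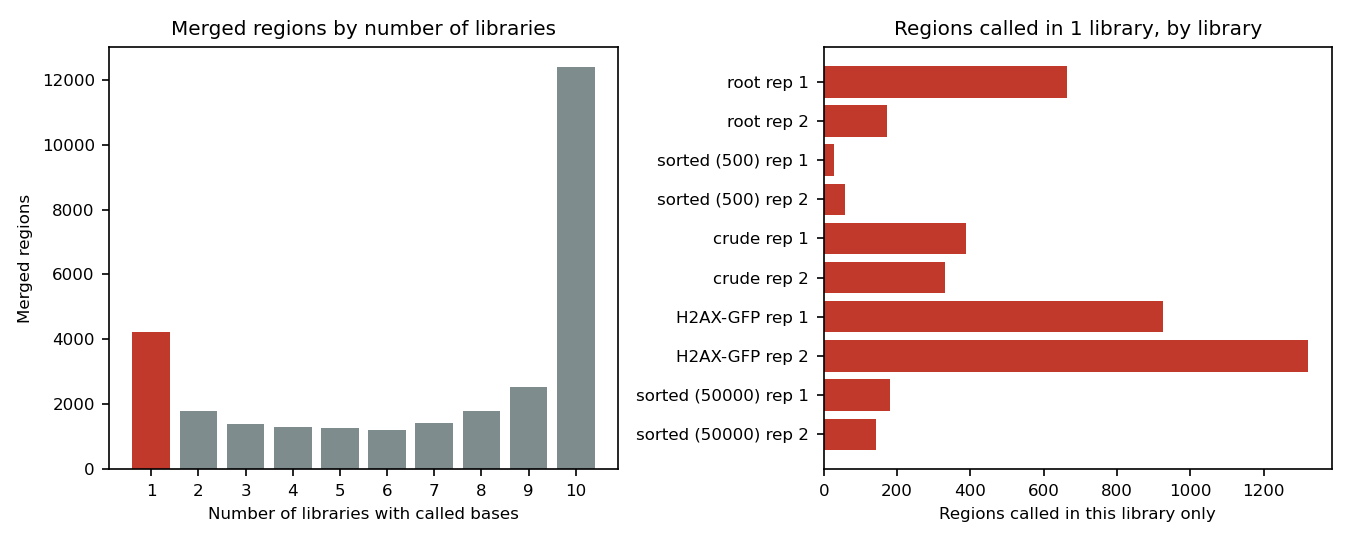
Left, the number of merged regions (vertical axis) by the number of libraries in which they had called bases (horizontal axis); red marks the 4212 called in 1 library. Right, the count of single-library regions (horizontal axis) in each of the 10 libraries, 29 to 1320, with both H2AX-GFP libraries at the top of the range.

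The distribution over libraries had 2 ends. Regions called in all 10 libraries numbered 12394, or 42.2% of the merged regions, and those called in 1 library came next. Each number from 2 to 9 libraries held between 1217 and 2532 regions. Of the 2532 regions called in 9 libraries, crude replicate 1 was the missing library for 1025, root replicate 2 for 628 and replicate 2 of 500 nuclei for 603. H2AX-GFP replicate 1 was the missing library for 1. Crude replicate 1, with 387 regions of its own, thus also had the most regions absent from it alone.

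A region private to a group can be called in replicate 1, in replicate 2 or in both. In roots, 663 regions were called in replicate 1 alone, 173 in replicate 2 alone and 160 in both root libraries and no other, so that 16.1% of the regions private to roots were found in both libraries (exact 95% interval 13.8 to 18.5%). For H2AX-GFP seedlings 220 of 2465 private regions, or 8.92% (7.83 to 10.1%), were in both. The share was 6.45% (2.40 to 13.5%) for 500 nuclei, with 6 of 93 regions. It was 1.91% (1.05 to 3.18%) for crude nuclei and 2.40% (1.04 to 4.68%) for sorted seedlings of 50000 nuclei, with 14 of 733 and 8 of 333 regions. Roots were the single group without another group of the same tissue. The 1803 regions called in exactly 2 libraries, the nearest to the rule from outside, joined libraries of the same group in 408 cases, or 22.6%, where 5 of the 45 possible pairs of libraries are within a group. The most frequent pair, crude replicate 2 with H2AX-GFP replicate 1, held 290, more than any pair within a group.

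**Figure D2:**
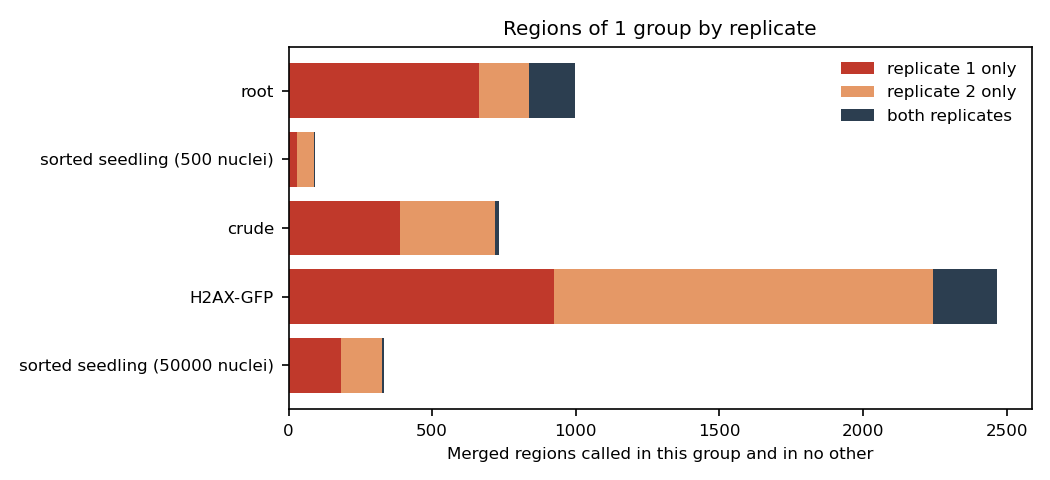
Merged regions called in 1 group and in no other (horizontal axis), stacked by replicate 1 alone, replicate 2 alone and both replicates, for the 5 groups. In roots 160 of 996 were in both replicates, and in sorted seedlings of 50000 nuclei 8 of 333.

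Single-library regions were narrow and stood low in their library's score order. Their median width was 275 bp, with 10 bp as the narrowest and 2462 bp as the widest. By library, the median lay between 104 bp in replicate 1 of 500 nuclei and 316 bp in H2AX-GFP replicate 2, whereas regions that a library had in common with at least 1 other had medians of 409 to 663 bp. There were 721 single-library regions under 100 bp, and 79 of 1000 bp or more, of which 69 came from H2AX-GFP replicate 2. The score is the authors' own value per region, and no label or header used here defines it. It was turned into a rank percentile within each library, where 100 is the highest score. Single-library regions had a median percentile of 8.66, and 2331 of them, or 55.3%, stood in the lowest 10% of their library. Medians by library ran from 4.03 in replicate 1 of 500 nuclei to 13.1 in replicate 2 of 500 nuclei. Regions called in all 10 libraries had a median percentile of 64.8.

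Regions just outside the rule resembled those inside it. Taken as listed in each library, before merging, regions called in 2 libraries had a median width of 286 bp and a median percentile of 11.2. Inside the rule these were 275 bp and 8.66. With each further library up to 10 the median width and percentile of listed regions went up. They reached 438 bp and 37.5 at 9 libraries and 680 bp and 64.8 at 10. After merging, the median width was 358 bp at 2 libraries and 1388 bp at 10. These values come from the calls that define membership and follow in part from how calling and merging work, since a wide region has more chance of touching another.

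**Figure D3:**
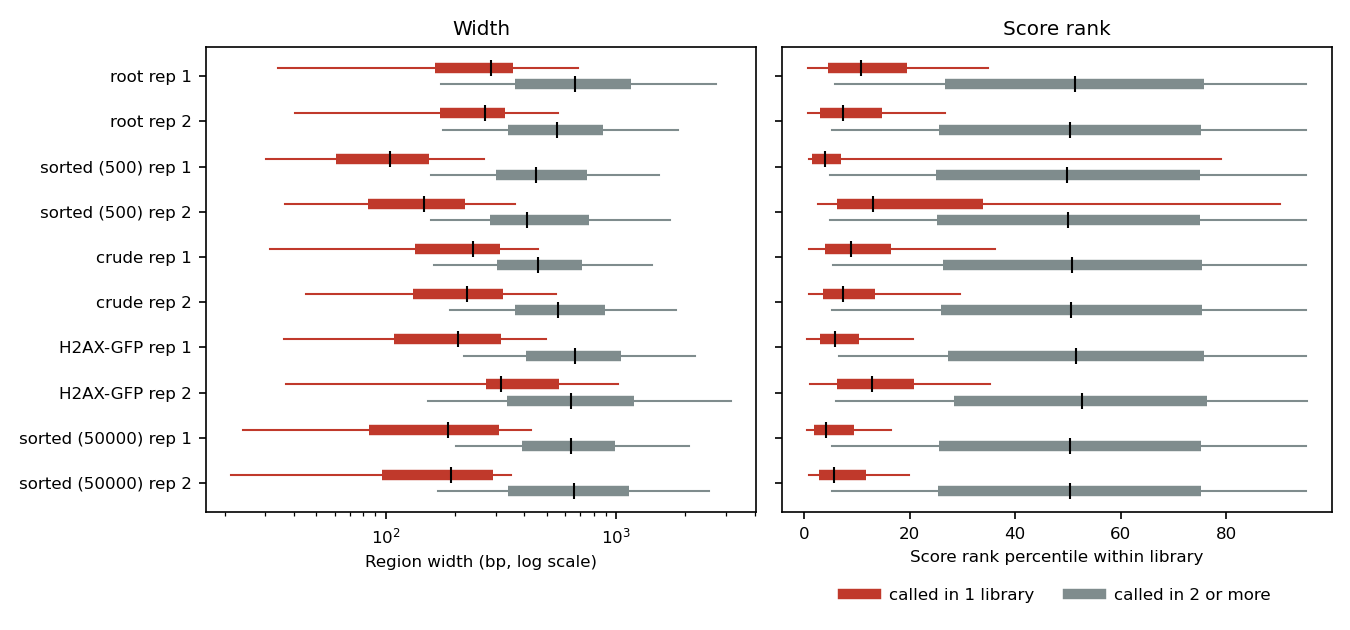
Width in bp (left, log axis) and score rank percentile within the library (right) of single-library regions (red, upper bar) and of regions called in 2 or more libraries (grey, lower bar), by library. Thick bars span the middle quartiles, thin lines the 5th to 95th percentile, and ticks the median; the red medians lie between 104 and 316 bp and between 4.03 and 13.1 percent.

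Most single-library regions lay within 1000 bp of a region called elsewhere. The gap to the nearest region of another library had a median of 693 bp, and 2599 of 4212, or 61.7%, had a gap of at most 1000 bp. A gap of at most 500 bp was found for 39.1% and of at most 100 bp for 5.15%. The share for positions placed at random was not computed. Merged regions covered 35.0 Mb, so many positions lie near one, and these shares do not mark a trait of single-library regions. By library, the share within 500 bp was highest in sorted seedling replicate 2 of 50000 nuclei, at 70.1%, and lowest in H2AX-GFP replicate 2 and replicate 1, at 29.9 and 31.1%. The other replicate of the same group had a region within 500 bp for 48.6% of the single-library regions of that sorted seedling library and for at most 31.0% in the other 9. Regions with no call of any other library within 5000 bp numbered 188, of which 116 were from H2AX-GFP replicate 2.

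A few single-library regions had very high scores. Of the 4212, 52 stood in the upper 50% of their library's scores and 9 in the upper 10%, 4 from H2AX-GFP replicate 2, 3 from replicate 2 of 500 nuclei, 1 from replicate 1 of 500 nuclei and 1 from root replicate 2. A pair of these lay near each other in a part of chromosome 5 without protein-coding genes. The highest-scoring region of replicate 1 of 500 nuclei was 44 bp wide at chr5:11955793-11955836 (TAIR10), with a score of 108.8, rank 151 in its library. The highest-scoring one of H2AX-GFP replicate 2 was 281 bp wide at chr5:11957674-11957954, with a score of 137.7, rank 148. The nearest protein-coding gene, AT5G32440, was 120880 and 118762 bp away. Regions of other libraries lay 171 and 581 bp from these 2. In replicate 2 of 500 nuclei the highest was 81 bp wide at chr1:27933103-27933183, inside AT1G74290, at rank 72, with a region of another library 99 bp away. In root replicate 2 the highest was 357 bp wide at chr5:20571466-20571822 and overlapped AT5G50520, at rank 463, and the nearest region of another library was 18578 bp away. How reads that match several places were treated is not stated in the labels or files.

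Position along genes was tested, as the rule does not use genes, but it is not free of the rule. A call that touches a region of another library is not a member, and called regions are dense where genes end. By library, 31.0 to 49.9% of gene ends lay in a called region, against 12.6 to 23.2% for sites 5000 bp off. A shortfall at gene ends can thus follow in part from the rule. How large that part is was not tested. Fewer single-library regions than other regions had their midpoint within 1000 bp outside an end of a protein-coding gene, the place where promoters and terminators lie. The share averaged 32.0 ± 12.8% for single-library regions and 46.1 ± 3.97% for the other regions of the same libraries (SD, n = 10 libraries). The difference of -14.1 ± 9.41 percentage points was below 0 in 10 of 10 libraries (exact sign-change permutation test, two-sided, p = 0.00195, the smallest 10 libraries allow; adjusted over the 4 position tests p = 0.00781). The libraries have many of the other regions in common and are not independent. The gap was largest in crude replicate 1, with 6.46% (exact 95% interval 4.22 to 9.39%) against 36.2%, in replicate 2 of 500 nuclei, with 20.7% (11.2 to 33.4%) against 46.6%, and in H2AX-GFP replicate 2, with 17.7% (15.7 to 19.9%) against 43.4%. Both sorted seedling libraries of 50000 nuclei had small gaps, 45.3 against 48.8% and 41.7 against 47.7%, inside the counting intervals. The difference was -16.5 points without crude replicate 1 and H2AX-GFP replicate 2 (exact permutation test, adjusted p = 0.0313). The call did not hold when regions no wider than the median single-library region were compared, at -7.43 points with 7 of 10 libraries lower (exact permutation test, adjusted p = 0.323). In the exact permutation test it was also lost with lists of equal length (-8.30 points, adjusted p = 0.297), with shares of bases (-7.58 points, adjusted p = 0.184) and with a 2000 bp flank (-10.5 points, adjusted p = 0.0625). The shortfall is relative to the other regions. Pooled over the 10 libraries, 29.3% of single-library midpoints lay within 1000 bp outside a gene end, against 20.4% of the chromosomes. Crude replicate 1 and H2AX-GFP replicate 2, at 6.46 and 17.7%, were below that share of the chromosomes.

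The other position measures went in different directions in different libraries. Spans of protein-coding genes held 43.6 ± 18.4% of single-library midpoints and 39.2 ± 4.55% of the others (SD, n = 10), with 5 libraries higher and 5 lower (exact permutation test, adjusted p = 0.410). Without crude replicate 1 and H2AX-GFP replicate 2 the difference was 5.26 points, with 4 libraries higher and 4 lower (exact permutation test, adjusted p = 0.125). Pseudogene spans, among which transposable element genes are often annotated, held 2.11 ± 2.38% and 0.738 ± 0.0970%, with 7 libraries higher (exact permutation test, adjusted p = 0.199). Windows of 1 Mb with under 100 protein-coding genes, called gene-poor here, held 7.11 ± 8.94% and 2.88 ± 0.335%, with 5 higher (exact permutation test, adjusted p = 0.292). Without H2AX-GFP replicate 2 the last 2 passed, at 1.70 points for pseudogenes and 7.22 points for gene-poor windows, each higher in 8 of 9 libraries (exact permutation test, adjusted p = 0.0234 and 0.0260). In that case a member is a region called in 1 of 9 libraries. Regions that H2AX-GFP replicate 2 had in common with just 1 other library thus became members of that library. Among its pairs with 30 or more such regions, 8.18% (with H2AX-GFP replicate 1) to 60.0% (with replicate 2 of 500 nuclei) lay in gene-poor windows. These passes therefore do not describe the remaining libraries apart from the calls of the one left out. Without crude replicate 1 as well they were 1.86 and 7.95 points (exact permutation test, adjusted p = 0.0521 each), with 6 and 7 of 8 libraries higher. Replicate 2 of 500 nuclei, 20.8 points above its other regions in gene-poor windows, stayed in both reduced sets. Without it alone the gene-poor difference was 2.67 points (exact permutation test, adjusted p = 0.434). Pooled over the 10 libraries, single-library midpoints fell below the share of the chromosomes in each of these classes. The shares were 47.9 against 54.1% for gene spans, 2.54 against 8.68% for pseudogenes and 8.12 against 12.6% for gene-poor windows. The libraries differed within the pool, and H2AX-GFP replicate 2 gave 291 of the 342 gene-poor midpoints. Its gene-poor share was 22.0%, that of replicate 2 of 500 nuclei 24.1%, and the others had 10.3% or less. Gene spans held 88.9% in crude replicate 1, 54.7% in H2AX-GFP replicate 2 and 53.2% or less in the others.

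**Figure D4:**
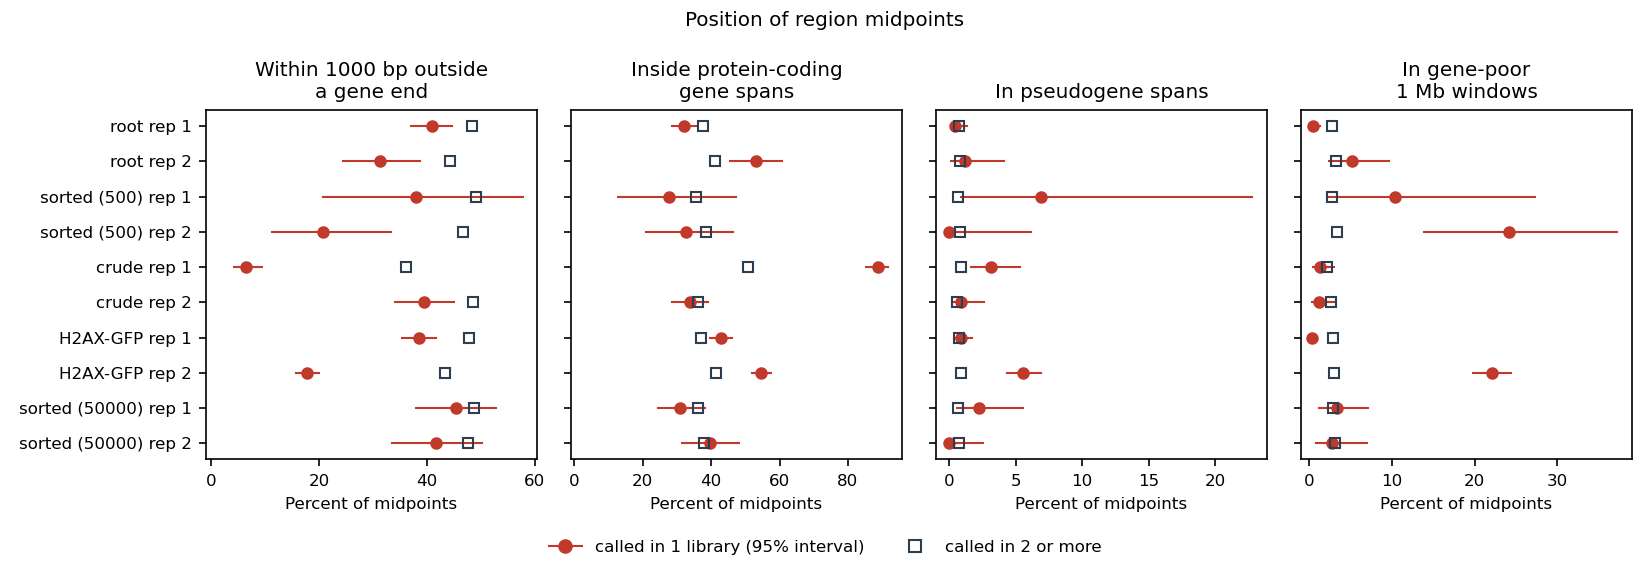
Percent of region midpoints (horizontal axes) in 4 kinds of position, for single-library regions (red circles, exact 95% intervals for counting error) and for regions called in 2 or more libraries (open squares), by library. In the first panel each red circle lies left of its square; in the second crude replicate 1 lies at 88.9%; in the last, replicate 2 of 500 nuclei and H2AX-GFP replicate 2 lie above 20%.

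Most single-library regions of crude replicate 1 lay inside genes. Of its 387, 344 or 88.9% (exact 95% interval 85.3 to 91.8%) had their midpoint in a protein-coding gene, against 50.8% of its other regions. For the other regions of the remaining libraries this share was 35.5 to 41.5%. The other regions of crude replicate 1 thus also lay in genes more often. Crude replicate 2 had 33.7% (28.7 to 39.1%) against 36.2%, so that its 2 shares differed by less than the counting interval. The 344 regions fell in 340 different genes, with a median length of 2583.5 bp against 2500 bp for genes holding its other regions. Their midpoints were a median of 535.5 bp from the nearest gene end, compared with 181 bp for its other regions inside genes. Regions of crude replicate 1 that were called in exactly 2 libraries had 79.1% of midpoints in genes. The pair with H2AX-GFP replicate 1, 145 regions, had 75.9%.

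In 8 of the other 9 libraries too, single-library regions inside genes lay deeper than the rest. Depth was not tested and was not compared at equal width. As at gene ends, a call that touches a region of another library is not a member. The median distance from a gene end was 631.5 bp against 186 bp in H2AX-GFP replicate 2, 421.5 against 140.5 bp in root replicate 1, 381.5 against 146 bp in root replicate 2 and 252 against 146 bp in H2AX-GFP replicate 1. In replicate 1 of 500 nuclei, with 8 such regions, it was 122 against 127 bp. H2AX-GFP replicate 2 had 241 single-library regions at least 1000 bp from either gene end, 33.4% of those in genes, against 9.77% of its other regions in genes. In 62 genes it had 2 or more. The most, 6, lay in AT2G07360 on chromosome 2, and 4 each lay in ACC1 (AT1G36160), the cytosolic acetyl-CoA carboxylase that feeds fatty acid elongation, in AT2G16365 and in ATMIN7 (AT3G43300), a guanine nucleotide exchange factor of vesicle traffic. These 4 genes were chosen after their values were seen.

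H2AX-GFP replicate 2 also differed in where on the chromosomes its regions lay. Gene-poor windows held 22.0% (exact 95% interval 19.8 to 24.4%) of its single-library regions and 3.03% of its other regions. In H2AX-GFP replicate 1 the shares were 0.324% (0.0669 to 0.945%) and 2.87%, so the replicates of this line went opposite ways. Windows with at least 100 and under 200 genes per Mb held a further 29.3% in replicate 2, against 5.78% of its other regions, and windows with 250 or more genes per Mb held 16.1% against 69.4%. Per Mb, replicate 2 had 19.4 single-library regions in windows under 100 genes, 35.2 from 100 to under 200, 19.5 from 200 to under 250 and 2.99 at 250 or more. Replicate 1 had 0.200, 1.45 and 5.59 in the first 3 classes, and 783 of its 925 regions lay in windows with 250 or more. Windows under 200 genes per Mb make up 21.8% of the chromosomes and held 678 of the 1320 regions of replicate 2, or 51.4%. Among these 678, 9.14% lay in pseudogenes, compared with 1.71% of its 642 in denser windows. They were a median of 322 bp wide at percentile 14.0, against 312 bp and 11.2 in the denser windows. The fullest window of 1 Mb held 52.

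Replicate 2 of 500 nuclei had a similar share with far fewer regions. Of its 58, 14 or 24.1% (exact 95% interval 13.9 to 37.2%) lay in gene-poor windows, against 3.37% of its other regions. Replicate 1 of 500 nuclei had 3 of 29, or 10.3% (2.19 to 27.4%), against 2.79%, which is inside the interval. The 35 regions called in replicate 2 of 500 nuclei and H2AX-GFP replicate 2 and in no other library had 60.0% in gene-poor windows. The 220 private to both H2AX-GFP libraries had 8.18%. Root replicate 1 had 3 of 663 single-library regions in gene-poor windows, 0.452% (0.0934 to 1.32%) against 2.76%, and root replicate 2 had 9 of 173, 5.20% (2.41 to 9.65%) against 3.25%. Whether more signal from gene-poor chromatin or a difference in sequencing depth goes with these values was not tested, as the lists hold no reads.

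**Figure D5:**
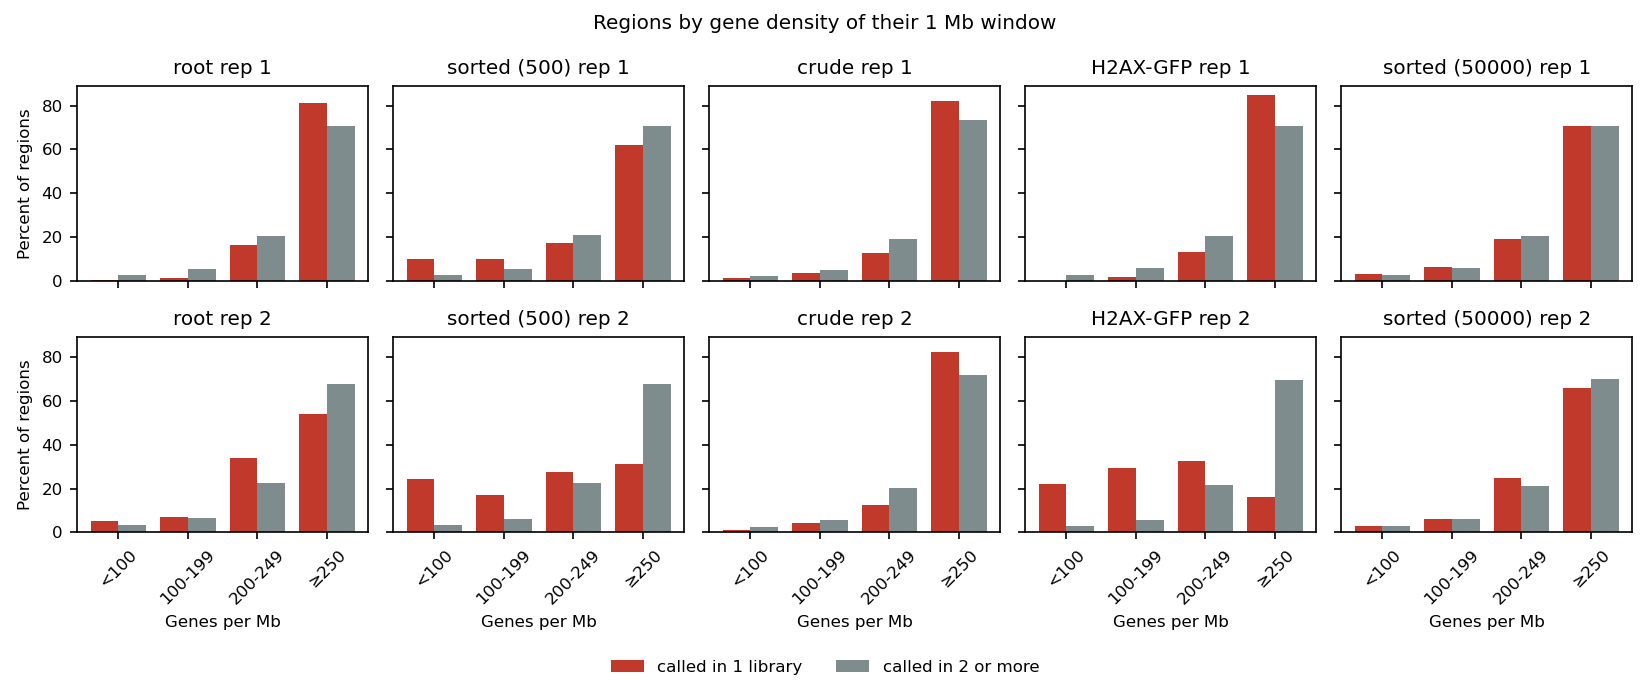
Percent of regions (vertical axes) by the number of protein-coding genes per Mb in their 1 Mb window (horizontal axes), for single-library regions (red, left bar) and regions called in 2 or more libraries (grey, right bar), by library. In H2AX-GFP replicate 2 the red bar at 250 or more genes per Mb is 16.1% and the grey bar 69.4%; in H2AX-GFP replicate 1 the red bar there is 84.6%.

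Single-library regions of roots were looked at by gene, since roots have no second group to repeat a call. The 5 with the highest scores in root replicate 1 had percentiles of 46.4 to 64.0. They included an 872 bp region at chr5:26624347-26625218 that overlapped UGT72E2 (AT5G66690), a glucosyltransferase of lignin precursors, with a score of 21.3, and a 1039 bp region at chr1:30369669-30370707 that overlapped CCR2 (AT1G80820), a cinnamoyl-CoA reductase on the way to lignin precursors, with a score of 19.0. The first was 313 bp from a region of another library and the second 702 bp. The other 3 lay inside AT3G05165, over AT3G06436 and 864 bp from AT4G10300. The widest of all single-library regions, 2462 bp at chr2:9757310-9759771, was from root replicate 1 and overlapped SCPL12 (AT2G22920), a serine carboxypeptidase-like protein. In root replicate 2 the second highest score belonged to a 378 bp region at chr1:24794963-24795340 that overlapped RHD6 (AT1G66470), a transcription factor that starts root hair formation. Its percentile was 32.9, and the nearest region of any other library was 1209 bp away. The next 3 overlapped or lay inside AT2G25410, AT1G60740 and AT2G19050 at percentiles of 31.0 to 31.7. The widest in that library, 666 bp, lay 4534 bp from VPS24.2 (AT3G45000), a subunit of the ESCRT complex for membrane sorting.

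Over the whole genome, 4274 of 27432 protein-coding genes, or 15.6%, had a single-library region in their span or within 1000 bp of it. A root library gave such a region to 893 genes, or 3.26%, and a seedling library to 3498, or 12.8%. Of 158 genes in 8 lists, 20 had one, or 12.7%, and 11 had one from a root library, or 6.96%. Without crude replicate 1 and H2AX-GFP replicate 2, 22 listed genes had one. Shares over so few genes are given as counts. In the list of root nutrient uptake, 4 of 21 genes had one, each from a root library and 2 also from a seedling library. In the list of root development there were 4 of 25, of which 2 from a root library. Photosynthesis had 2 of 27 and none from roots. Cuticle and epidermis had 3 of 16, housekeeping 2 of 14, wounding and early stress 3 of 19 (each from a root library), seed and reproductive genes 2 of 23, and genes of H2AX and the DNA damage response 0 of 13.

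Among nutrient uptake genes, PHO1 (AT3G23430), an exporter of phosphate towards the shoot, held 3 single-library regions of root replicate 1, of 306, 277 and 436 bp, all inside the gene and at percentiles of 2.13 to 24.4. FRO2 (AT1G01580), the ferric chelate reductase of the root surface, had one of 333 bp from root replicate 1 at 222 bp from the gene and one of 389 bp inside it from crude replicate 2. FIT (AT2G28160), the transcription factor that directs iron uptake, had one of 340 bp from root replicate 2 inside the gene at percentile 4.42. SULTR1;1 (AT4G08620), a high-affinity sulphate transporter of roots, had one of 333 bp from root replicate 2 and 3 from H2AX-GFP replicate 2, of 18, 504 and 423 bp inside the gene. The root development genes were RHD6, already described, and PIN2 (AT5G57090), an auxin efflux carrier of the root tip, with 295 bp from root replicate 1 and 528 bp from H2AX-GFP replicate 1. The regulators PLT2 (AT1G51190) and SCR (AT3G54220), which maintain the root stem cells, had regions of 242 and 36 bp from H2AX-GFP replicate 1 and sorted seedling replicate 2 of 50000 nuclei.

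In the list of wounding and stress all regions were from root replicate 1. The cold response factors CBF2 (AT4G25470) and CBF3 (AT4G25480) are neighbours and had the same region between them, 112 bp at percentile 6.13, and ERF6 (AT4G17490), an ethylene response factor, had 361 bp at 920 bp from the gene. In photosynthesis, GLK1 (AT2G20570), a factor of chloroplast development, held 610 bp of H2AX-GFP replicate 2 and 120 bp of crude replicate 1 inside the gene, 84 bp apart. LHCB6 (AT1G15820), an antenna protein of photosystem II, had 219 bp of sorted seedling replicate 2 of 50000 nuclei at percentile 0.867. In the cuticle list, the wax and cutin genes ABCG11 (AT1G17840), GPAT6 (AT2G38110) and CER4 (AT4G33790) had regions from crude replicate 1, from H2AX-GFP replicate 1, and from root replicate 1 and H2AX-GFP replicate 1. In housekeeping, TUB2 (AT5G62690), a beta-tubulin with a near copy beside it, had a region of 242 bp inside the gene and another 770 bp outside it, both from crude replicate 1. The translation elongation factor gene AT5G60390 had 38 bp from root replicate 1 and 197 bp from H2AX-GFP replicate 1. The seed genes EM6 (AT2G40170) and CRU3 (AT4G28520), for a protein of late embryogenesis and a storage protein, had 75 and 180 bp from H2AX-GFP replicate 1. The 2 genes for H2AX itself, HTA3 (AT1G54690) and HTA5 (AT1G08880), had regions in each of the 10 libraries and no single-library region.

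In the remaining libraries the highest-scoring or widest single-library regions lay at genes of varied function. In crude replicate 1 the highest score, 44.8 at percentile 86.3, was a 94 bp region at chr2:3498397-3498490 inside AT2G07662, in a part of chromosome 2 known for an insertion of mitochondrial DNA. Crude replicate 1 had 4 single-library regions between 3 and 4 Mb of that chromosome, replicate 1 of 500 nuclei 1, H2AX-GFP replicate 2 had 10, and the other 7 libraries none. The 4 of crude replicate 1 lay between chr2:3247240 and 3498490, and the 1 of 500 nuclei began at 3246810. All 10 of H2AX-GFP replicate 2 lay outside that stretch, from 3049194 to 3170629 and from 3663626 to 3668379. The 1 Mb window was not set to the bounds of the insertion. That window was chosen after its values were seen. The widest of crude replicate 1, 915 bp, lay inside XYL1 (AT1G68560), an alpha-xylosidase of the cell wall. In crude replicate 2 the highest score lay 508 bp from AT1G33120, and the widest, 1069 bp, lay 616 bp from MYB47 (AT1G18710), a MYB transcription factor. In H2AX-GFP replicate 1 the highest, at percentile 43.4, overlapped SVR3 (AT5G13650), a chloroplast translation factor, and the widest, 1524 bp, overlapped MCCA (AT1G03090), a subunit of the carboxylase of leucine breakdown. The widest of H2AX-GFP replicate 2, 2253 bp, lay 975 bp from AT3G30739. In the libraries of 500 nuclei the widest lay inside AT4G15975, with 353 bp in replicate 1, and inside EXT6 (AT2G24980), an extensin of the cell wall, with 424 bp in replicate 2. In sorted seedlings of 50000 nuclei the highest in replicate 1 overlapped AT2G05250, with the widest 1174 bp from AT2G41225. In replicate 2 the highest lay 742 bp from NAC102 (AT5G63790), a NAC transcription factor, at percentile 36.0, and the widest overlapped AT4G17000.

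Of the 4274 genes with a single-library region, 4007 had them from 1 library, 259 from 2 and 8 from 3. Of these 8, 5 were taken by number of regions and then by locus tag. They were AT1G34050, AT3G28550, AT4G08450 and AT4G19520, each with 4 regions, and LOX1 (AT1G55020), a lipoxygenase, with 3, as the 3 genes not named also had. Transfer RNA genes were overlapped by 0.0950% of single-library regions, against 1.86% of merged regions called in 2 or more libraries, and long non-coding RNA genes by 3.09% against 7.40%. Protein-coding genes were overlapped by 56.3% against 80.7%. Pseudogenes not marked as transcribed were overlapped by 2.11% against 1.44%, and transcribed pseudogenes by 1.19% against 1.46%. These shares are given without a test and depend on width, since a wide region overlaps more.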

How the data were processed

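ATAC-seq region lists of 10 libraries were used. The other 4 samples of the series were not analysed here. The lists held positions and scores. Each score is a value deposited by the authors; neither its definition nor the peak caller is given in the sources used here. Scores served to rank regions within a library. Per the submitters' processing notes, positions refer to TAIR10. Other columns (start and end) were used as deposited. Depth is unknown.

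Regions were merged where they touched or overlapped. Genes came from the RefSeq table of TAIR10.1, joined by position and without strand or exons. In each library 31.0% to 49.9% of gene ends were covered, against 12.6% to 23.2% of positions 5000 bp away. A region was placed by its midpoint, and a pseudogene position could also lie near a gene end. Members were compared with the other regions of the same library by exact sign-change permutation over 10 libraries (1024 changes), adjusted by Benjamini-Hochberg over 4 tests at 0.05. The procedure was tested on simulated data, with planted regions for the merging and independent differences of equal spread for the test. That setting does not cover libraries that have regions in common or very unequal numbers of members. No genome sequence was used, so the planned GC comparison was not run and no sequence is shown.

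Named were, per library, the highest-scoring and the widest member with the nearest protein-coding gene, the next 4 by score in each root library, listed genes hit (up to 4 per list), HTA3, HTA5 and the 5 genes hit from most libraries. All 158 listed genes matched by locus tag. The members, lists and rules were chosen with earlier results of these data known. Alternatives were other merging distances, lists cut by score, other flanks, widths and comparison classes, a limit on bases called elsewhere, and libraries left out. Tests ran in Python 3.11.15 (scipy 1.17.1, numpy 2.4.6), tables in pandas 2.3.3 and figures in matplotlib 3.10.9.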

Additional observations from a re-analysis of the deposited data

Results flagged for a closer look

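In 2 of the position measures, both libraries of a group lay above their other regions while both libraries of another group lay below, and the difference between the groups was not tested. For gene spans, H2AX-GFP replicates 1 and 2 stood 5.92 and 13.2 percentage points above their other regions, and replicates 1 and 2 of 500 nuclei stood at -7.87 and -5.84 points. For gene-poor windows, replicates 1 and 2 of 500 nuclei stood 7.56 and 20.8 points above, and crude replicates 1 and 2 at -0.891 and -1.45 points. The libraries of 500 nuclei had 29 and 58 single-library regions, so their shares rest on few regions. With 5 groups of 2 libraries, opposite signs of this kind can arise between some groups without a difference.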

How the results depend on the processing

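The count of single-library regions was 2143 when regions up to 500 bp apart were merged and 2082 with the higher-scoring 50% of each list. It lay between 3634 and 4521 in the other alternatives that count merged regions. A different count gave 6158, of listed regions before merging with under 50% of their bases called in other libraries. Such regions may overlap a region of another library. H2AX-GFP replicate 2 and root replicate 1 had 667 and 275 with 500 bp merging, and 408 and 415 with the higher-scoring 50%. With the higher-scoring 50% the median width was 688.5 bp, the median percentile 55.9 and the share within 500 bp of another library's region 15.2%. With lists of equal length the percentile was 18.6. The share within 500 bp was 0 with 500 bp merging, by construction. Listed genes hit numbered 12 with 500 bp merging and 32 without the H2AX-GFP group. For gene ends the difference lost its call at -8.30 points with equal numbers of regions, -7.58 by bases, -7.43 among regions no wider than the median member and -10.5 with a 2000 bp flank. The gene span difference turned to -0.853 points by bases, in neither case past the threshold. The pseudogene difference passed without the H2AX-GFP group, at 1.31 points (exact permutation test, adjusted p = 0.0469). Without crude replicate 1 and H2AX-GFP replicate 2 the pseudogene and gene-poor differences were 1.86 and 7.95 points and did not pass. Leaving out a library also turns regions it had in common with just 1 other library into members of that library. The cause of the changes was not tested. Leaving out each library in turn gave 3805 to 4521 regions and -16.1 to -12.2 points at gene ends, with the call kept each time. It gave 3.37 to 6.31 points for gene spans, 0.890 to 1.80 for pseudogenes and 2.67 to 7.22 for gene-poor windows, the last 2 passing without H2AX-GFP replicate 2 alone. The alternatives for width, score rank, distance and listed genes other than flanks, 500 bp merging and the root group for position, and leaving out the H2AX-GFP group or crude replicate 1 with H2AX-GFP replicate 2 were chosen after seeing the data. No paired analysis was possible because no group was tested against another, so replicate numbers could not serve as a block; each test already compares regions within a library. Unknown depth limits any statement on why a region is missing elsewhere.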
